A study of Mus musculus with 6 samples.

Results

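The genes described here build the meiotic chromosome axis, hold homologous chromosomes together or repair DNA breaks by recombination, and they were followed in mouse embryonic stem cells (mESCs) with and without the zinc finger protein PATZ1. The list held 10 genes, *Sycp1*, *Sycp2*, *Sycp3*, *Hormad1*, *Smc1b*, *Stag3*, *Rec8*, *Dmc1*, *Zcwpw1* and *Meiob*, and all 10 were found by symbol among the 23420 genes of the count files. The mESCs were of the E14 line, a widely used feeder-independent line, and grew with LIF and inhibitors of MEK1/2 and GSK3. WT cells carried the wild type gene, and the *Patz1* -/- (KO) cells were made from them with CRISPR/Cas9, by picking single clones. Each genotype had 3 libraries of RNA depleted of ribosomal RNA. The series counts WT and KO as 1 cell line each, whereas the study made several KO clones, and which of them gave the 3 KO libraries is not stated. If it was 1 clone, its own differences and the loss of PATZ1 cannot be told apart. Shifts along chromosomes were seen among genes with a mean of at least 50 normalized counts, at a DESeq2 adjusted p under 0.05. On Y, 4 of 4 genes were lower in KO (median log2 fold change -4.02). On chromosome 11, 236 of 960 were lower, and on X after the gene *Ogt* 95 of 177 were higher. Over all genes tested 4.78% were lower and 2.7% higher. Whether these shifts came with a clone was not tested.

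In germ cells, chromosomes entering meiosis load cohesin rings built with meiosis-specific subunits and fold along an axis of HORMA domain and SYCP proteins. The synaptonemal complex then joins the paired axes, while DNA breaks are made and repaired on the homologous chromosome by the recombinase DMC1. In somatic and early embryonic cells many of these genes are held back by DNA methylation and by a variant Polycomb complex with E2F6, MGA and MAX, and mESCs are known to transcribe some of them at low levels without entering meiosis.

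Depth was uneven. The libraries held between 11040756 and 47721070 counts, the 2 lowest being replicate 3 of WT and of KO, where the ribosomal precursor *Rn45s* took 14.4% and 12.5% of counts against 1.79% to 3.03% elsewhere. A value of 3 counts, taken as the floor of detection, equalled between 1.69 and 8.21 normalized counts per library. *Patz1*, the targeted gene, had 1838, 1983 and 1843 normalized counts in replicates 1 to 3 of WT and 853, 862 and 862 in those of KO, which was 45.5% of the WT mean. It lies on chromosome 11, where the median log2 fold change of 960 genes was -0.26. By western blot, the study found the PATZ1 protein lost from its KO lines. The stem cell markers *Pou5f1*, *Nanog* and *Sox2* were abundant in every library, and of the 8 stem cell markers 1 passed the test of KO against WT, as did 7.49% of all genes tested (*Dppa5a*, log2 fold change 0.38, DESeq2 adjusted p 0.00223). *Dazl*, *Ddx4* and *Kit*, genes of germ cells that mESCs also transcribe, were detected, whereas *Prm2* and *Tnp1* of haploid germ cells had 0 counts in each library and 8 of the 9 markers of haploid germ cells and somatic testis had at most 3 counts in each. The 7 fibroblast markers summed to between 87.5 and 110 normalized counts in WT and between 134 and 169 in KO, mainly *Thy1*, which passed (log2 fold change 0.83, DESeq2 adjusted p 0.0147) as the 1 of the 3 with an adjusted p that did, with *Postn*, *Dcn* and *Lum* at 0 in KO, and their part in the results was not tested.

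Loss of PATZ1 went with changes of 3 genes of the list, in both directions. *Zcwpw1* and *Stag3* rose 2.15-fold and 1.68-fold in KO, and *Hormad1* fell to 0.595 of its WT level. Of the other 7 genes, 6 did not pass the threshold of an adjusted p under 0.05, and *Meiob* was too low to be given an adjusted p. Across all genes 7.49% of the 15309 tested passed, 2.7% being higher and 4.78% lower in KO. The median log2 fold change of the list was 0.05, against 0.01 over all genes tested. WT and KO libraries were fully separated for 5 of the 9 tested genes (*Stag3*, *Zcwpw1*, *Hormad1*, *Smc1b* and *Dmc1*), a pattern that 25.6% of all tested genes showed. In bulk RNA, a change in the fraction of cells that transcribe a gene and a change in RNA per cell cannot be told apart.

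**Figure D1:**
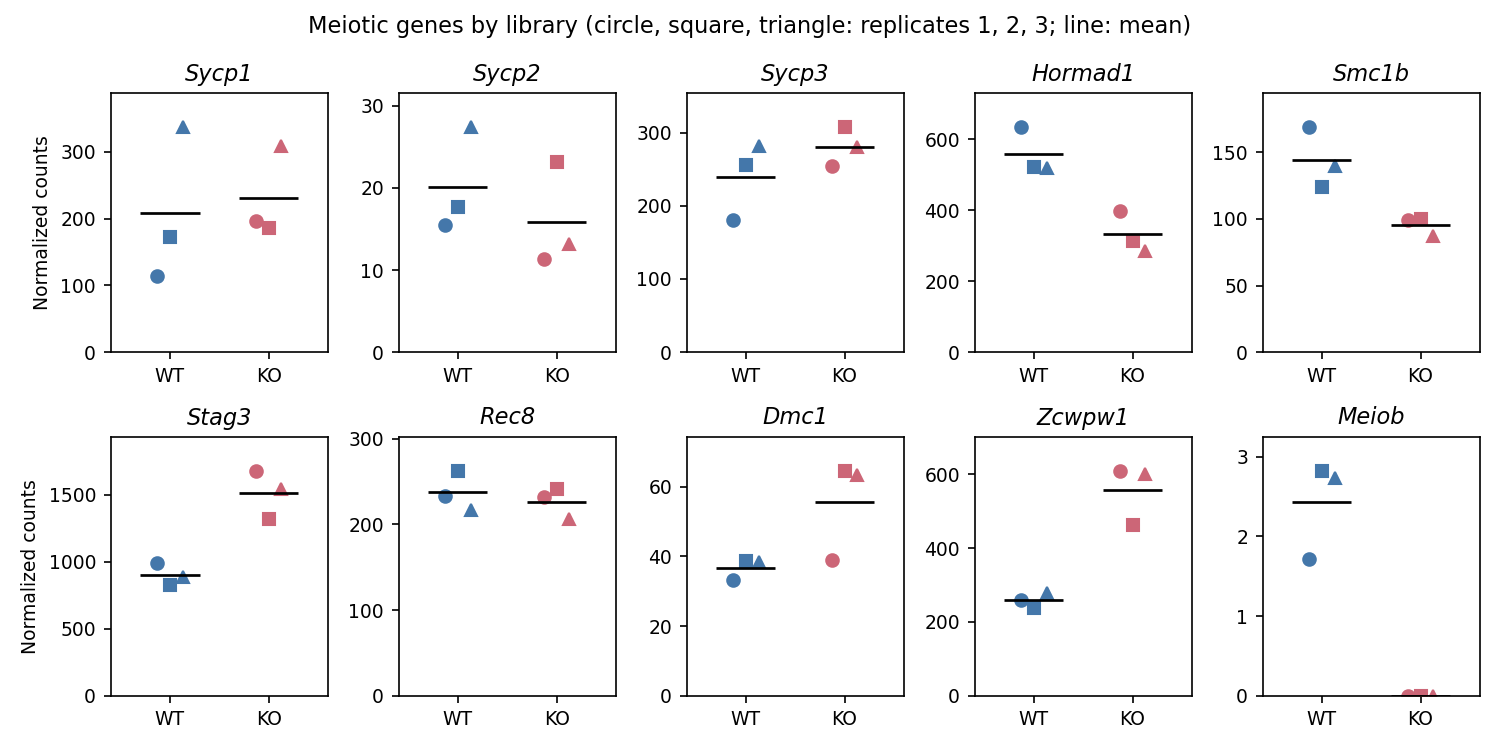
Normalized counts (linear axes from 0) of the 10 genes in the 3 WT (blue) and 3 KO (red) libraries, with replicates 1, 2 and 3 as circles, squares and triangles and the mean as a line. *Stag3* and *Zcwpw1* lie higher and *Hormad1* lower in each KO library, whereas *Sycp1*, *Sycp2*, *Sycp3* and *Rec8* overlap between genotypes.

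Among the meiotic cohesins, *Stag3*, which replaces STAG1 or STAG2 in meiotic cohesin rings, was the most abundant. It had 993, 830 and 884 normalized counts in replicates 1 to 3 of WT and 1681, 1323 and 1541 in those of KO. Every KO library was above every WT library. The log2 fold change was 0.74 ± 0.13 (SE, DESeq2 adjusted p 7.14e-07), and *Stag3* supplied between 32.4% and 37.7% of the summed counts of the list in WT and between 43.8% and 47.7% in KO. Without *Stag3* the sums were 1636 to 1843 in WT and 1698 to 1845 in KO, and these ranges overlapped, although KO was the higher in each pair of same-numbered libraries (1641 and 1841, 1636 and 1698, 1843 and 1845).

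*Smc1b* encodes the meiotic partner of SMC3 in the cohesin ring and had lower values in KO. It had 169, 124 and 140 normalized counts in replicates 1 to 3 of WT and 99.3, 99.6 and 87.2 in those of KO. The libraries did not overlap, but the log2 fold change of -0.58 (SE 0.22, 95% interval -1.02 to -0.15) missed the threshold after adjustment (adjusted p 0.0922, DESeq2). *Rec8* encodes the meiotic kleisin that closes the ring and is cut when homologous chromosomes separate. It had 233, 263 and 216 normalized counts in replicates 1 to 3 of WT and 232, 241 and 206 in those of KO, a log2 fold change of -0.07 with a 95% interval from -0.39 to 0.26 (adjusted p 0.919). Of the 3 meiotic cohesin genes, 1 thus passed, against 7.49% of all genes.

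The axis genes split as well. *Hormad1*, whose HORMA domain protein marks axes that are not yet synapsed, had 634, 523 and 520 normalized counts in replicates 1 to 3 of WT and 398, 314 and 285 in those of KO. All KO libraries were below all WT libraries, with a log2 fold change of -0.74 ± 0.16 (SE, DESeq2 adjusted p 0.000233). *Sycp3*, a filament protein of the axis, had 181, 256 and 282 normalized counts in WT and 255, 307 and 280 in KO, with a log2 fold change of 0.26 ± 0.19 (SE, DESeq2 adjusted p 0.583). The genotypes overlapped for *Sycp3*. Of its annotated exonic sequence, 52.2% is shared with exons of *Chpt1* on the other strand, and because the strand setting of the counting was not stated, its value is uncertain. *Chpt1* had a log2 fold change of 0.19 (adjusted p 0.683).

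*Sycp2*, which binds SYCP3 on the axis, was low, with 15.4, 17.7 and 27.4 normalized counts in WT and 11.3, 23.1 and 13.2 in KO (log2 fold change -0.23 ± 0.53 SE, DESeq2 adjusted p 0.912). *Sycp1*, the transverse filament of the synaptonemal complex, had 114, 173 and 337 normalized counts in replicates 1 to 3 of WT and 197, 186 and 309 in those of KO. Its highest value was in replicate 3 of both genotypes, the shallow libraries, and the spread within each genotype exceeded the difference between them. The 95% interval of its log2 fold change, -0.82 to 1.14, left room for a change of either sign (adjusted p 0.938).

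Among the recombination genes, *Zcwpw1* was the 1 that passed. Its protein reads the histone H3 marks that PRDM9 places at recombination hotspots. It had 259, 239 and 279 normalized counts in replicates 1 to 3 of WT and 610, 462 and 600 in those of KO. The lowest KO library was above the highest WT library by more than the range of WT. The log2 fold change was 1.11 ± 0.16 (SE, DESeq2 adjusted p 4.92e-10). Exons of *Pilra* on the other strand cover 8.21% of the annotated exonic sequence of *Zcwpw1*, and *Pilra* had a log2 fold change of -0.45 ± 0.64 (SE, DESeq2 adjusted p 0.839).

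*Dmc1*, the meiotic recombinase, had 33.2, 38.8 and 38.3 normalized counts in WT and 38.9, 64.6 and 63.4 in KO. KO replicate 1 was next to the WT values and the other KO libraries were higher (log2 fold change 0.58 ± 0.34 SE, DESeq2 adjusted p 0.410). *Meiob*, a partner of RPA on single-stranded DNA, was at the limit of detection. It had 3, 4 and 1 raw counts in replicates 1 to 3 of WT and 0 in each KO library. These were 1.72, 2.82 and 2.74 normalized counts in WT, and a count of 0 allowed up to 1.69, 1.78 and 7.93 in KO replicates 1 to 3. The unadjusted p was 0.0759 (DESeq2), and with so few counts no fold change is given.

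**Figure D2:**
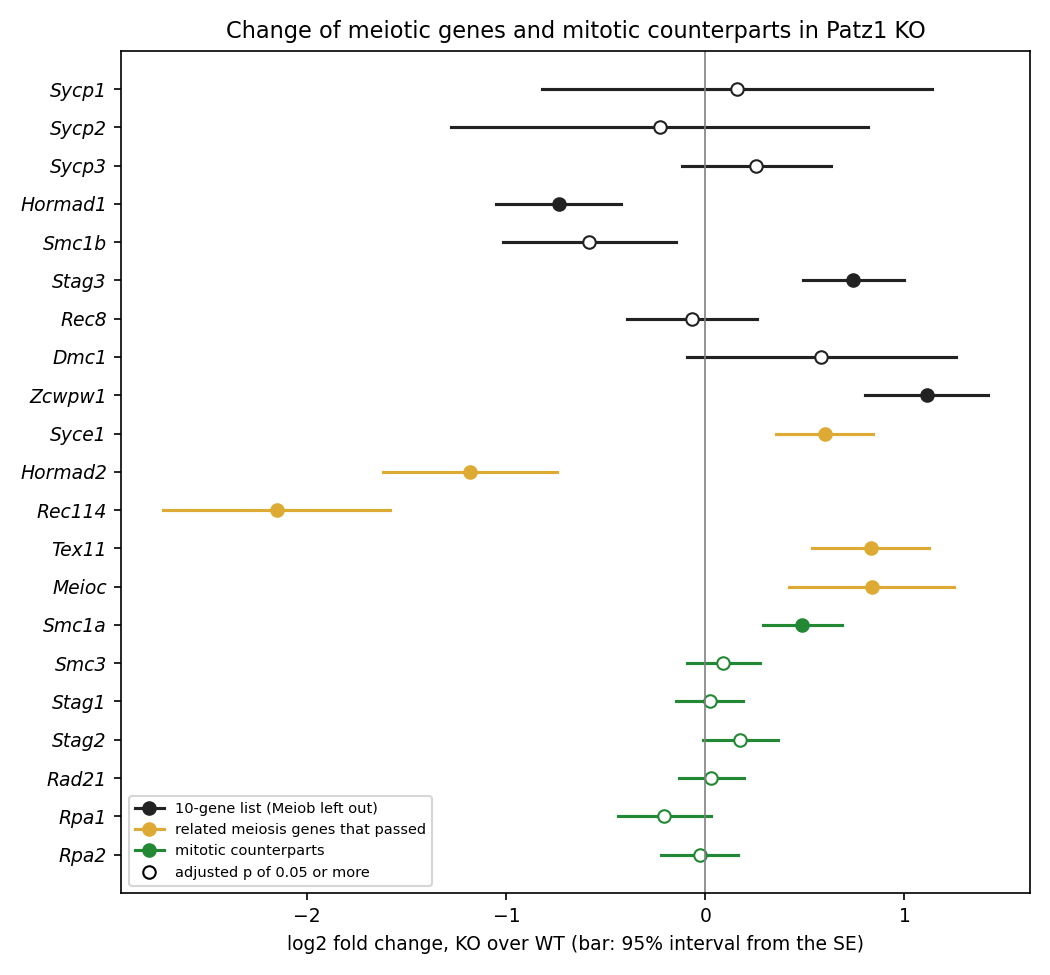
Log2 fold changes of KO over WT with their 95% interval from the SE of DESeq2, for 9 genes of the list (black), the 5 related meiosis genes that passed (yellow) and 7 mitotic counterparts (green), with filled points at an adjusted p under 0.05. The filled points of meiotic genes fall on both sides of 0, from -2.15 for *Rec114* to 1.11 for *Zcwpw1*.

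Levels were then divided by the exonic length of each gene, so that genes could be ranked. In WT, *Hormad1* was the highest, with 323 ± 37.6 normalized counts per kilobase (SD, n = 3), followed by *Sycp3* (189 ± 41.6), *Stag3* (157 ± 14.4), *Rec8* (80.9 ± 7.99), *Sycp1* (58.5 ± 32.4) and *Zcwpw1* (45.5 ± 3.56). *Smc1b* (35.6 ± 5.65), *Dmc1* (15.1 ± 1.29), *Sycp2* (3.38 ± 1.06) and *Meiob* (1.35 ± 0.342) were lower. Libraries of neighbours in this order overlapped between *Sycp3* and *Stag3*, between *Rec8* and *Sycp1* and between *Sycp1* and *Zcwpw1*. In KO, *Stag3* was the highest with 264 ± 31.5 per kilobase, followed by *Sycp3* (222 ± 20.9) and *Hormad1* (192 ± 34.0), and these neighbours overlapped. *Zcwpw1* came next with 97.8 ± 14.5 per kilobase, but its libraries overlapped those of *Rec8* (77.2 ± 6.22). The place of *Sycp3* in both genotypes is uncertain, because 52.2% of its exonic sequence is shared with *Chpt1* and the strand setting was not stated.

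To place these levels, the meiotic subunits were set beside the mitotic proteins they replace. Per kilobase, *Stag3* stood at 44.7% ± 4.52 of *Stag1* in WT and at 74.0% ± 10.3 in KO (SD, n = 3 each), and at 49.8% ± 6.63 and 73.7% ± 6.92 of *Stag2*. The other meiotic subunits were far below their counterparts. *Rec8* stood at 5.40% ± 0.451 of *Rad21* in WT and 5.05% ± 0.453 in KO. *Smc1b* stood at 3.56% ± 0.659 of *Smc1a* in WT and 1.68% ± 0.198 in KO, a ratio to which both genes contributed, since *Smc1a* had a log2 fold change of 0.49 (adjusted p 9.60e-05, DESeq2).

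Of 7 mitotic counterparts, *Smc1a* was the 1 that passed, against 7.49% of all genes, and the others (*Smc3*, *Stag1*, *Stag2*, *Rad21*, *Rpa1* and *Rpa2*) had log2 fold changes between -0.21 and 0.18. *Smc1a* lies on X after *Ogt*, where the median log2 fold change of 177 genes was 0.44. With the replicate number as a block *Rpa1* also passed (log2 fold change -0.20, adjusted p 0.0103), so that 2 genes did. *Rpa1* lies on chromosome 11, where the median of 960 genes was -0.26.

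**Figure D3:**
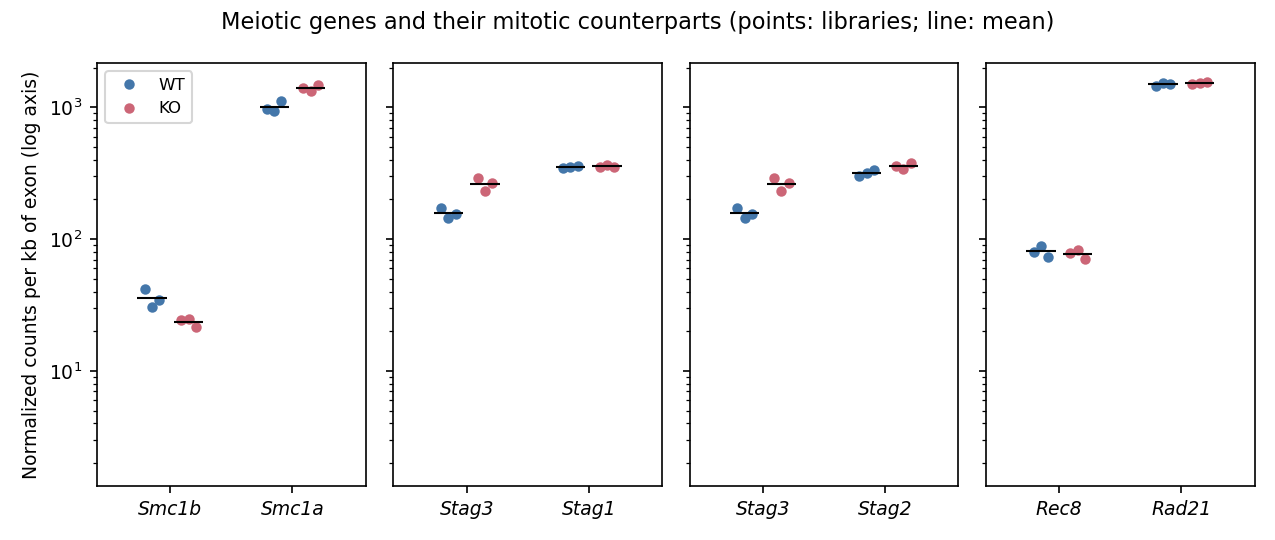
Normalized counts per kilobase of exon (log axis) of meiotic genes and their mitotic counterparts in WT (blue) and KO (red), with 1 point per library and the mean as a line. *Stag3* reaches 44.7% to 74.0% of *Stag1* and *Stag2* on average, and *Smc1b* and *Rec8* stay between 1.68% and 5.40% of their counterparts on average.

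The 3 genes that changed lie on 2 chromosomes (GRCm38, the mm10 build). *Zcwpw1* is at chr5:137787798-137822621 and *Stag3* at chr5:138280240-138312393, both on the plus strand and 458 kb apart. *Hormad1* is at chr3:95559677-95587671 on the plus strand. Since both genes that rose are close together, the genes around them were compared, a window chosen after their values were seen. Within 1 Mb of either gene, the other 63 tested genes had adjusted p-values of at least 0.0565 (DESeq2), and the 20 between them of at least 0.475. Within 1 Mb of *Zcwpw1*, the median log2 fold change of 58 tested genes was 0.05, close to the 0.04 of chromosome 5. *Gpc2*, which ends just before *Stag3* on the same chromosome, had a log2 fold change of -0.06 ± 0.22 (SE, DESeq2 adjusted p 0.948), and *Mepce*, just before *Zcwpw1*, 0.05 (SE 0.10, adjusted p 0.906).

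**Figure D4:**
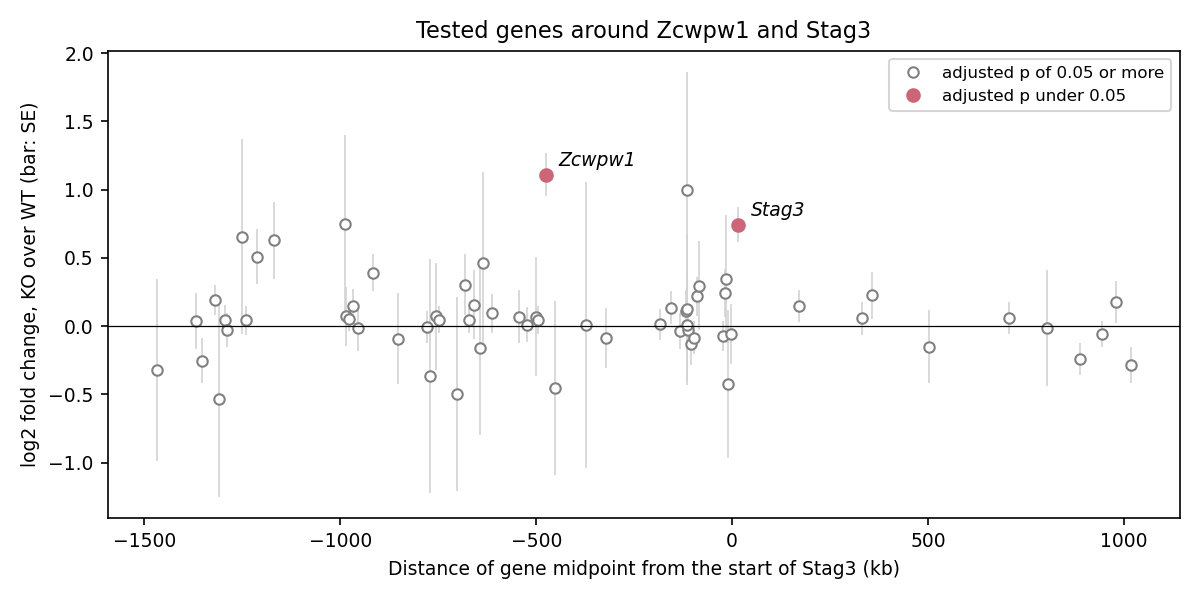
Log2 fold change of KO over WT with its SE for tested genes within 1 Mb of *Zcwpw1* or *Stag3*, by the distance of the gene's midpoint from the start of *Stag3* in kilobases. *Zcwpw1* (1.11) and *Stag3* (0.74) are the filled points, with an adjusted p under 0.05, and the other 63 genes are open.

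Around *Hormad1*, 3 of the 65 tested genes within 1 Mb passed, a smaller share than the 7.49% of all genes. *Cers2*, a ceramide synthase gene, and *4930558C23Rik* had log2 fold changes of -0.47 and -2.62, and *Sv2a*, a synaptic vesicle gene, had 2.97. The median log2 fold change of the 65 genes was 0.01. These neighbours, too, were chosen after the values were seen.

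The promoters of the genes that changed were read from RefSeq (GRCm38.p6), from 250 bases before to 50 after the start of transcription, and they are shown because they differ in the E-box that MGA and MAX bind. Promoters were found for 9 of the 10 genes. The letters searched on both strands were CACGTG, the E-box, which is the same on both strands and was present in 7.17% of 32544 promoter windows of this length, GCGGGAA, an E2F core (4.63%), and GGGAGGG, a G-rich core of the MAZ and PATZ1 kind (22.1%). Capitals mark the E-box and the E2F core on either strand, each printed 5′ to 3′ on the strand of the gene.
*Stag3* (chr5:138280259-138280558, plus strand): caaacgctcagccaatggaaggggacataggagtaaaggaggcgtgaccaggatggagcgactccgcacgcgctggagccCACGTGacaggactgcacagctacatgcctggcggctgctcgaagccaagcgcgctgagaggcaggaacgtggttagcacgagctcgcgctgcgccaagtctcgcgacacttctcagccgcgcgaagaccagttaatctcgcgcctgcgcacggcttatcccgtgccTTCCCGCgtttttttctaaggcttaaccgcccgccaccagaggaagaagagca
*Hormad1* (chr3:95559427-95559726, plus strand): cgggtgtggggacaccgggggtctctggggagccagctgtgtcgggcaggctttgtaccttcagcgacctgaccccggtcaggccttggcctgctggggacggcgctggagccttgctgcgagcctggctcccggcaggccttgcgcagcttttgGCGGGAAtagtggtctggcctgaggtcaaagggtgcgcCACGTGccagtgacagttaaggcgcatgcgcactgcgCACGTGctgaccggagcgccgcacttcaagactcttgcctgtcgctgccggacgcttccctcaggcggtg
*Zcwpw1* (chr5:137787552-137787851, plus strand): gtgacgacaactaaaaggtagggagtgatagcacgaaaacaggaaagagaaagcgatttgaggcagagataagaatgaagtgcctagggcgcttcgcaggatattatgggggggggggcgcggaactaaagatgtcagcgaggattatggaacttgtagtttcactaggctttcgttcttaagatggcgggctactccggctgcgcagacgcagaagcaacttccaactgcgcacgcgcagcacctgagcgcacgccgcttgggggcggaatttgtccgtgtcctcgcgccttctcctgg

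The *Hormad1* window held the E-box starting 57 and 20 bases before the start and the E2F core 95 bases before it. *Stag3* held the E-box 170 bases before its start and the E2F core, on the other strand, 3 bases before it. Neither was in the windows of the 2 *Zcwpw1* starts. Over the list, the E-box was in the windows of *Sycp1*, *Sycp3*, *Hormad1* and *Stag3*, and the E2F core in those of *Sycp3*, *Hormad1*, *Smc1b* and *Stag3*. These letters stood before a gene that rose, a gene that fell and genes that did not pass, and their part in the changes was not tested. Of 34 related meiosis genes with promoters, described below, 6 held the E-box and 10 the E2F core. The G-rich core was in the windows of 0 of the 9 genes. The ratio of observed to expected CpG was between 0.363 (*Sycp2*) and 1.08 (*Smc1b*) over the 11 windows of the list, and 8 of the 9 genes were above the median of all windows, 0.387. These matches of letters are descriptions and do not show that a factor is bound.

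To see whether the rest of the meiotic programme moved, 44 related genes were listed by role, of which 40 were matched to a symbol in the files and 38 had an adjusted p. *Ankrd31*, *Shoc1*, *Rnf212* and *Meiosin* were not matched and were not analysed here. Of the 38 genes, 5 passed, 3 higher and 2 lower in KO, against 7.49% of all genes, 2.7% higher and 4.78% lower. With the replicate number as a block 8 passed, the added genes being *Hfm1* (log2 fold change 1.03, adjusted p 0.0133), *Six6os1* (0.54, adjusted p 0.00513) and *Brca2* (-0.29, adjusted p 6.93e-05). The block also raised the calls over all genes, from 1146 to 2131. *Hfm1* passed as well with limma-voom (adjusted p 0.0283), and both *Hfm1* and *Six6os1* passed without WT replicate 3 (0.000391 and 0.00289) and without replicate 3 of both genotypes (0.00511 and 0.0150). The median log2 fold change of the 40 genes was 0.08.

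The deepest fall was that of *Rec114*, whose protein helps the SPO11 machinery to make DNA breaks. It had 265, 193 and 153 normalized counts in replicates 1 to 3 of WT and 62.6, 43.3 and 23.8 in those of KO (log2 fold change -2.15 ± 0.29 SE, DESeq2 adjusted p 3.38e-11). Exons of *Nptn* on the other strand cover 26.9% of the annotated exonic sequence of *Rec114*. Because the strand setting was not stated, the value of *Rec114* is uncertain. *Nptn* had a log2 fold change of 0.11 (DESeq2 adjusted p 0.762). *Hormad2*, the second HORMA domain gene of the axis, had 230, 208 and 186 normalized counts in WT and 114, 87.2 and 66.1 in KO (log2 fold change -1.18 ± 0.22 SE, DESeq2 adjusted p 7.50e-06). *Hormad2* lies on chromosome 11, 1.04 Mb from *Patz1*. Of 40 tested genes within 1 Mb of it, 9 passed, each of them lower in KO, and the median over the 40 was -0.30 on the log2 scale. This was also seen over the whole of chromosome 11, where 248 of 960 genes passed, 236 of them lower, with a median of -0.26, and its part in the fall of *Hormad2* was not tested.

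*Tex11*, a crossover gene on X, had 302, 257 and 246 normalized counts in WT and 527, 467 and 444 in KO (log2 fold change 0.83 ± 0.15 SE, DESeq2 adjusted p 3.19e-06). *Tex11* lies before *Ogt*, where the median over 233 genes was 0.04, against 0.44 over the 177 genes after *Ogt*. The split of X at *Ogt* was fixed by hand, and whether the shift after it reaches *Tex11* was not tested. *Syce1*, which builds the central element of the synaptonemal complex, had 543, 516 and 471 in WT and 830, 771 and 724 in KO (log2 fold change 0.60 ± 0.12 SE, DESeq2 adjusted p 7.81e-05). *Meioc*, a partner of YTHDC2 in meiotic entry, had 122, 194 and 214 in WT and 269, 319 and 341 in KO (log2 fold change 0.83 ± 0.21 SE, DESeq2 adjusted p 0.00233). It lies on chromosome 11, where the median of 960 genes was -0.26. *Meioc* missed the threshold without WT replicate 1 (adjusted p 0.0716) or KO replicate 2 (0.0560). For each of these 3 genes every KO library was above every WT library.

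By role, the related genes that passed were 1 of 5 for the synaptonemal complex, the 1 other axis gene, 1 of 6 for DNA breaks, 1 of 9 for crossovers and 1 of 4 for meiotic entry. Over all genes tested 7.49% passed, so counts this small say little of a role. Of the 6 for DNA breaks, *Spo11* had no adjusted p. The 8 for recombination and the 6 for telomere attachment missed the DESeq2 threshold, *Brca2* and *Psmc3ip* having unadjusted p-values of 0.00892 and 0.0312. *Psmc3ip* had a log2 fold change of -0.26 and lies on chromosome 11, where the median of 960 genes was also -0.26. Both HORMA domain genes were lower, and the synaptonemal complex genes that did not pass, *Six6os1*, *Syce2*, *Syce3* and *Tex12*, had log2 fold changes of 0.48 (unadjusted p 0.0352), -0.0020, 0.06 and -0.06.

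Repressors of germline genes were also listed, and 1 of 18 passed, against 7.49% of all genes. This was *Kdm5c*, an H3K4 demethylase gene on X after *Ogt*, with a log2 fold change of 0.38 ± 0.11 (SE, DESeq2 adjusted p 0.0108). *Kdm5c* missed the threshold without WT replicate 1 (0.144), WT replicate 2 (0.167), KO replicate 1 (0.128) or KO replicate 3 (0.0630). *Mga*, *Max* and *E2f6* had log2 fold changes of -0.06, 0.02 and 0.30 (adjusted p 0.896, 0.960 and 0.121). With the replicate block, which raised the calls over all genes from 1146 to 2131, 4 of the 18 passed, *E2f6* (0.30, adjusted p 0.0487), *Cbx3* (0.28, adjusted p 1.28e-06), *Uhrf1* (-0.19, adjusted p 0.0108) and *Kdm5c*.

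Of the 9 germ cell markers, 8 had an adjusted p and 2 passed, in opposite directions, against 7.49% of all genes. *Dazl*, an RNA-binding protein gene of germ cells, fell from a mean of 723 ± 67.2 to one of 451 ± 14.5 normalized counts (SD over 3 libraries; log2 fold change -0.67 ± 0.13 SE, DESeq2 adjusted p 8.86e-06). *Mael*, of the piRNA pathway, had 162, 192 and 142 in WT and 271, 320 and 280 in KO (log2 fold change 0.79 ± 0.18 SE, DESeq2 adjusted p 0.000394). *Ddx4* had a log2 fold change of 0.25 (adjusted p 0.496). The summed level of the 9 markers was 5246 to 5295 normalized counts in WT and 5111 to 5382 in KO. *Kit* supplied the largest part of this sum, with means of 2792 in WT and 2791 in KO, so the sum says little of the other markers.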

How the data were processed

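RNA-seq was analysed from 3 WT and 3 *Patz1* KO libraries of E14 mESCs, grouped by the sample titles. Each library has a deposited table of gene symbols and raw counts, which the authors had not normalized. The submitters' processing notes name TopHat2 (2.1.1), Bowtie2 (2.3.1.0), featureCounts (1.6.2), DESeq2 and mm10; annotation, strand setting and treatment of duplicates were not given in the sources used here. Library totals ranged from 11040756 to 47721070 counts, and floors cover counting error only.

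Counts were tested with the two-sided Wald test of DESeq2 (1.42.0), with median-of-ratios size factors, default independent filtering, no shrinkage, Benjamini-Hochberg adjustment over all genes and a threshold of 0.05. Normalized counts are counts divided by size factors. Log2 fold changes are KO over WT. Alternatives were edgeR (4.0.16), limma-voom (limma 3.58.1), TMM size factors, a filter of 10 counts in 3 libraries, no independent filtering, a replicate block, omitting each library in turn, and omitting both replicates 3. The code was tested on simulated data. The study calls the replicates biological, a term it defines by separate runs of differentiation, and these mESCs were not differentiated. The labels do not say what separates the replicates, so that p-values measure the spread between these libraries, which may be partly technical.

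Replicate numbers paired the libraries: the deviation of each library from its genotype mean correlated between same-numbered libraries (r 0.469, 0.619 and 0.684 for numbers 1 to 3) over 11524 genes with a mean of at least 50 normalized counts. This pairing comes from the data and the numbers in the titles.

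Gene members and lists were chosen with earlier results of these data known. The genes named were the 10 of the list, *Patz1*, the members of the other lists that passed, and the 5 genes most like the member of smallest adjusted p; others were named after their values were seen. Some genes that this rule or the lists include are not reported here. Positions and exonic lengths (merged exons) came from GENCODE M21 on GRCm38, and older symbols were matched through RefSeq.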

Additional observations from a re-analysis of the deposited data

How the results depend on the processing

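*Zcwpw1*, *Stag3* and *Hormad1* kept their direction and passed in each of the 13 alternatives, with log2 fold changes from 1.03 to 1.24, 0.66 to 0.84 and -0.90 to -0.63 and adjusted p-values of at most 0.00156, 0.00456 and 0.0268. The count of 3 genes of the list was thus the same in each, without any 1 library included. *Smc1b* stayed lower but missed the threshold in each (adjusted p 0.0730 to 0.587). *Sycp1* changed sign without WT replicate 1 (-0.14) and without KO replicate 3 (-0.10), its log2 fold change reaching 0.65 without WT replicate 3. *Sycp2* did so without KO replicate 1 (0.0058) and without replicate 3 of both genotypes (0.057), against -0.68 without KO replicate 2. *Rec8* did so without WT replicate 2 (0.015), against -0.12 without WT replicate 3. With the replicate block the calls were 8 related meiosis genes, 2 mitotic counterparts, 4 germline gene repressors and 2131 of all genes, against 5, 1, 1 and 1146. The block changed no call within the 10 genes, and why it added calls elsewhere was not tested. Leaving out 1 library gave between 4 and 7 related genes, 1 mitotic counterpart, between 0 and 2 repressors and between 583 and 1341 of all genes, with 605, 664, 583 and 590 without WT replicate 1, WT replicate 2, KO replicate 1 and KO replicate 2. Where 0 repressors passed, between 2 and 4 had an unadjusted p under 0.05, and edgeR and limma-voom on all libraries called 1. Leaving out replicate 3 of both genotypes gave 2 repressors. *Meiob* had at most 4 counts in any library, which limits what can be said of it.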

Other observations

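Of the meiotic genes outside the list, *Stra8* and *Prdm9* were transcribed at low levels in both genotypes, and *Spo11* and *Rad21l* were near the limit of detection. *Stra8*, which drives meiotic entry, was at 97.4 ± 4.90 normalized counts in the WT libraries and 86.5 ± 26.3 in the KO libraries (SD, n = 3). *Prdm9*, the histone methyltransferase whose marks ZCWPW1 reads, had 61.2 ± 8.23 and 76.5 ± 12.2 (log2 fold change 0.31 ± 0.27 SE, DESeq2 adjusted p 0.677). *Spo11*, the enzyme that makes meiotic DNA breaks, had raw counts of 0, 3 and 0 in replicates 1 to 3 of WT and of 5, 1 and 0 in those of KO. *Rad21l*, a meiotic kleisin, had 6, 0 and 2 raw counts in WT and 0, 5 and 2 in KO. Neither was given an adjusted p.

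Among the genes most like *Zcwpw1* over the 6 libraries, out of 11523 others with a mean of at least 50 normalized counts, were *Lmo4* (Pearson r 0.995), *Lrrc8d* (0.994), *Pdcd11* (0.994) and *Kif15* (0.993), on log2(normalized count + 1). The points share genotype and depth, so the likeness is a description. *Lmo4* had a log2 fold change of 0.78 (adjusted p 0.000471, DESeq2), and *Kif15* one of 0.17 (adjusted p 0.340).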
